A study of Mus musculus with 23 samples.

Results

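Livers of IL-4 knockout mice fed a high-fat diet were compared with livers of wild-type mice fed the same diet, across all genes. The comparison was taken from the labels, as the 3 libraries titled for IL-4 knockout on the fatty diet against the 4 libraries titled for wild type on that diet, which are 7 of the 23 RNA-seq libraries of the series. The IL4KO_HFD group holds 3 male IL-4 knockout mice and the WT_HFD group holds 4 male wild-type mice, each fed a diet with 60% of its energy from fat for 15 weeks. IL4KO_chow and WT_chow, with 4 male mice each and the same feeding time on normal chow, give the same genotype difference in animals that were not part of the high-fat groups. The remaining 8 libraries come from mice lacking both IL-10 and IL-4 (dKO). They enter only the gene filter, the scaling between libraries and the estimate of the spread, apart from a few values given at the end. All mice came from 1 supplier at 6 to 8 weeks of age on a C57Bl6 background, and each library is 1 perfused liver. The labels name neither the targeted exons nor littermate controls, so the genotypes may also differ at other loci.

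IL-4 is a cytokine made mainly by type 2 helper T cells, innate lymphoid cells, basophils and eosinophils. It binds the IL-4 receptor alpha chain, paired with either the common gamma chain or the IL-13 receptor, and signals through Janus kinases and the transcription factor STAT6. In the liver it is best known for driving alternative activation of macrophages. Cholesterol synthesis and fatty acid synthesis, the gene programmes that recur below, are controlled in hepatocytes by the sterol regulatory element binding proteins (SREBPs), which are held in the endoplasmic reticulum by INSIG proteins when sterols are abundant. SREBP sites in promoters often lie beside sites of the factor NF-Y, which binds CCAAT.

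Promoters of 3 genes that were lower in the knockout are printed because members of both programmes moved in the same direction. The sequences are those of RefSeq on GRCm38.p6, 250 bases before to 50 bases after the annotated start, on the strand of the gene, and 7 of the 10 called genes of both programmes had such a window. Capitals mark an E-box, CACGTG, or a CCAAT box, CCAAT, on either strand. Insig1 lies on the plus strand at chr5:28071162-28071461, Sc5d on the minus strand at chr9:42264251-42264550 and Fasn on the minus strand at chr11:120824498-120824797.
Insig1: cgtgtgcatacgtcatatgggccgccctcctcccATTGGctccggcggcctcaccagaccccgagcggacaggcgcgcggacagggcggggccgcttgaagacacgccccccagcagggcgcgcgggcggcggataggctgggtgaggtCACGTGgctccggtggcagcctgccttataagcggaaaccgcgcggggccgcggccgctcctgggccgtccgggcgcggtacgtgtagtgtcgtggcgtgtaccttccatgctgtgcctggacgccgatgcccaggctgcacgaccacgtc
Sc5d: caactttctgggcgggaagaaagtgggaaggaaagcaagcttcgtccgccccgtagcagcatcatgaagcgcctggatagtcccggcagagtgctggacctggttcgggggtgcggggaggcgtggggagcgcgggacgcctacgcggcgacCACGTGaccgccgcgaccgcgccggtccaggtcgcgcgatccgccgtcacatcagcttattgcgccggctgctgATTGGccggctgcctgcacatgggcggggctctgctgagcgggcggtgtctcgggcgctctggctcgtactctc
Fasn: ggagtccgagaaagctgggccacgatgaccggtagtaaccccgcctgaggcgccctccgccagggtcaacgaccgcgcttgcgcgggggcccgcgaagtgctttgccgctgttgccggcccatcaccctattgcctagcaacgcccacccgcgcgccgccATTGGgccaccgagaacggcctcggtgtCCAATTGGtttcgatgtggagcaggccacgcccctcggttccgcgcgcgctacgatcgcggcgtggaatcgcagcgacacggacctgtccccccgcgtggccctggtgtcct
An E-box was found in 2 of the 7 genes, Insig1 and Sc5d, starting at positions -101 and -98 from the start, and in 11.7% of tested genes with a window. A CCAAT box was found in 6 of the 7, against 42.9% of tested genes, and Fasn held 3, 2 of which overlap on opposite strands. The sterol regulatory element TCACNCCAC, searched on both strands, was in 0 of the 7 windows and in 1.51% of tested genes. These matches describe letters in the windows. The motifs were chosen after the expression values had been seen.

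Estimated counts per gene, as the authors deposited them, summed to 7.79 to 8.94 M counts in the IL4KO_HFD libraries and 8.6 to 18.2 M counts in the WT_HFD libraries. Levels are given as CPM (counts scaled to library size and composition), each value from 1 library, and differences as log2 fold changes of IL4KO over WT with their standard error (SE). A gene is called when its Benjamini-Hochberg adjusted p (FDR) from edgeR's two-sided quasi-likelihood test is below 0.05 over all 12891 tested genes. The 3 knockout livers resembled each other less than the 4 wild-type livers did: correlations of log2 CPM across genes were 0.9504 to 0.9787 within IL4KO_HFD and 0.9825 to 0.9891 within WT_HFD. On the first principal component of the 7 libraries, with 39.7% of the variance, IL4KO_HFD replicates 1, 2 and 3 lay at 20.47, -33.69 and 54.33, on both sides of the WT_HFD libraries at -22.15 to 0.64. The second component, with 24.5% of the variance, kept the groups apart. IL4KO_HFD replicates 1, 2 and 3 lay there at -17.79, -38.88 and -8.71, and the WT_HFD libraries at 5.10 to 23.6. Hepatocyte markers summed to 114000 to 155000 CPM in IL4KO_HFD and 136000 to 158000 CPM in WT_HFD.

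The targeted gene itself could not be checked. Il4 had 1, 0 and 1 counts in the IL4KO_HFD libraries and 0 in each of the 4 WT_HFD libraries, so it was too low to be tested, and counts summed over a gene cannot reveal a deleted exon. Il13 and Il5, the neighbouring type 2 cytokine genes, and Il25 had 0 counts in all 7 libraries. Receptor, kinase and STAT genes of the IL-4 pathway were detected, and those given next did not pass the test. Il4ra, the receptor alpha chain, was at 35.9, 45.7 and 41.2 CPM in IL4KO_HFD and 38.4, 35.3, 33.1 and 37.5 CPM in WT_HFD (log2 fold change 0.18, SE 0.110, FDR 0.455), with overlapping groups. Stat6 averaged 70.0 ± 5.50 CPM in IL4KO_HFD (SD, n = 3) and 69.9 ± 3.94 CPM in WT_HFD (SD, n = 4), with FDR 0.998 by edgeR. The receptor chain genes Il13ra1 and Il2rg and the kinase genes Jak1, Jak2, Jak3 and Tyk2 had log2 fold changes of -0.30 to 0.09, and none was called.

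Of the 22 genes listed for IL-4 and IL-13 receptor signalling, 14 were tested and 1 was called (7.14%), against 3.02% of all tested genes, with a median log2 fold change of 0.01 against 0.01 over all genes. The other 8, among them Gata3 and the STAT6 target Socs1, were too low to be tested. The called gene was Irs1, whose product docks at the IL-4 and insulin receptors. Irs1 was at 19, 18.3 and 22.3 CPM in IL4KO_HFD and 13.6, 14.9, 14.4 and 11.8 CPM in WT_HFD, with every knockout library above every wild-type library. It was higher by 0.55 (SE 0.128, FDR 0.0223), but stayed called in only 4 of the 7 fits that each left out 1 of the compared libraries, and was not called on chow. Genes of alternative macrophage activation showed no call, 0 of 15 tested, with 0 members at an unadjusted p below 0.05 and a median of -0.09. Arg1, which in liver is also the hepatocyte urea cycle arginase, had a log2 fold change of -0.03, and the mannose receptor gene Mrc1 one of -0.01.

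Across all genes, 389 were called, 3.02% of those tested, with 223 higher (1.73%) and 166 lower (1.29%) in IL4KO_HFD. The changes were small for most, with a median absolute log2 fold change of 0.61, and 38 of the higher and 51 of the lower genes differed at least 2-fold. CPM of the 3 and the 4 libraries did not overlap for 367 of the called genes, and for 13.6% of all tested genes (7.13% higher and 6.42% lower). The count depended on single libraries, at 185 without IL4KO_HFD replicate 1, 631 without replicate 2, 227 without replicate 3, 227 without WT_HFD replicate 2 and 186 without WT_HFD replicate 4. A set of 114 genes (0.884% of those tested), 59 higher and 55 lower, was called in all 7 of the fits that left out 1 library, and 6 of the 389 were called in none. Where a gene below is said to hold in a number of fits, these 7 are meant, and they draw the spread also from the other groups. With the compared groups fitted alone, 95 genes were called. There 32 results for named genes lost their call, and 43 kept direction and call. Among the 32 were Timd2 (FDR 0.053), Col13a1 (FDR 0.0542) and Cyp2c37 (FDR 0.167), which held in all 7 fits.

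**Figure D1:**
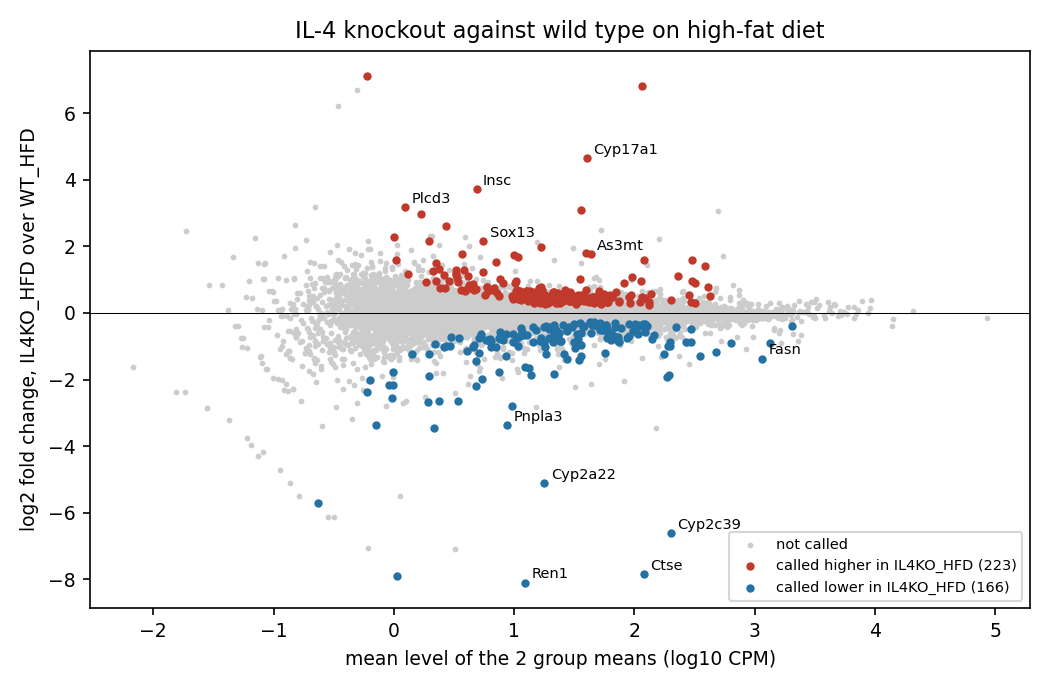
Log2 fold change of IL4KO_HFD over WT_HFD (vertical) against the mean of the group means in log10 CPM (horizontal), 1 point per tested gene, with genes at 0 in all 7 libraries not drawn. The 223 genes called higher and the 166 called lower are coloured, and the genes with the lowest fold changes at a high level are Ctse and Cyp2c39.

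Of 25 listed and tested genes of cholesterol synthesis and uptake, 5 were lower in the knockout, 0 were higher and 20 were not called. The called share was 20.0% against the background of 3.02%, and the median log2 fold change was -0.43 against 0.01 over all genes.

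Sc5d, a sterol desaturase late in the pathway, was at 413, 415 and 498 CPM in IL4KO_HFD and 835, 758, 769 and 959 CPM in WT_HFD. It fell by 0.91 (SE 0.131, FDR 0.000229), with wide separation of the groups. Insig1, which retains SREBP in the endoplasmic reticulum and is itself an SREBP target, was at 221, 162 and 225 CPM in IL4KO_HFD and 431, 454, 427 and 670 CPM in WT_HFD. The highest wild-type value, in replicate 4, stood apart from the other 3, and all 4 were above the knockout libraries. Insig1 fell by 1.29 (SE 0.225, FDR 0.00244). Both genes held in all 7 fits.

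Among the 20 members that were not called, Hmgcs1 had a log2 fold change of -0.85 (FDR 0.0605) and Mvd one of -1.23 (FDR 0.0922), while Srebf2, which encodes the SREBP that drives this pathway, had one of 0.15. Middle steps such as Sqle (-0.27), Cyp51 (-0.24) and Idi1 (-0.07) overlapped widely between the groups. For Sqle the knockout libraries were at 95.1, 65.0 and 147 CPM and the wild-type libraries at 105, 132, 66.2 and 186 CPM.

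Of 28 listed and tested genes of lipogenesis, the making of fatty acids and triglycerides from acetyl-CoA, 5 were lower and 0 higher (17.9%, against 3.02% overall), with a median of -0.54, and 27 of the 28 had a negative log2 fold change. The number lower ran from 3 (without IL4KO_HFD replicate 1, IL4KO_HFD replicate 3 or WT_HFD replicate 1) to 7 (without IL4KO_HFD replicate 2). Acly, which makes cytosolic acetyl-CoA from citrate, was at 291, 317 and 277 CPM in IL4KO_HFD and 718, 581, 560 and 793 CPM in WT_HFD. It fell by 1.17 (SE 0.184, FDR 0.000721), and the groups were far apart. Fasn, the fatty acid synthase, was at 714, 797 and 426 CPM in IL4KO_HFD and 2120, 1320, 1530 and 1730 CPM in WT_HFD. It fell by 1.37 (SE 0.272, FDR 0.00701), with replicate 3 the lowest knockout library. Gpam, which catalyses the first acylation of glycerol phosphate, was at 134, 133 and 128 CPM in IL4KO_HFD and 278, 191, 284 and 296 CPM in WT_HFD, and fell by 0.99 (SE 0.157, FDR 0.00079). The knockout values of Gpam were nearly equal, and the lowest wild-type value, in replicate 2, was still above them. Acly, Fasn and Gpam held in all 7 fits.

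The other called members were less firm. Elovl6, an elongase of saturated fatty acids, was at 113, 125 and 82.3 CPM in IL4KO_HFD and 322, 196, 203 and 275 CPM in WT_HFD, and fell by 1.22 (FDR 0.0223), in 3 of the 7 fits. Pnpla3, a lipid droplet protein whose human homologue carries a common risk allele for fatty liver, was at 0.686, 3.35 and 0.405 CPM in IL4KO_HFD and 29.9, 8.55, 17.5 and 8.5 CPM in WT_HFD. It fell by 3.38 (SE 0.839, FDR 0.0351), also in 3 of the 7 fits, with the wild-type libraries spread widely. Not every member passed the test. Srebf1, which encodes the lipogenic SREBP, was at 204, 185 and 228 CPM in IL4KO_HFD and 332, 380, 384 and 398 CPM in WT_HFD, without overlap, but with a log2 fold change of -0.86 at FDR 0.0741. Scd1, the stearoyl-CoA desaturase, was at 11800, 16600 and 7960 CPM in IL4KO_HFD and 23000, 11500, 14200 and 14400 CPM in WT_HFD (FDR 0.794), with overlap. Mlxipl, which encodes the carbohydrate-responsive factor ChREBP, had a log2 fold change of -0.03.

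**Figure D2:**
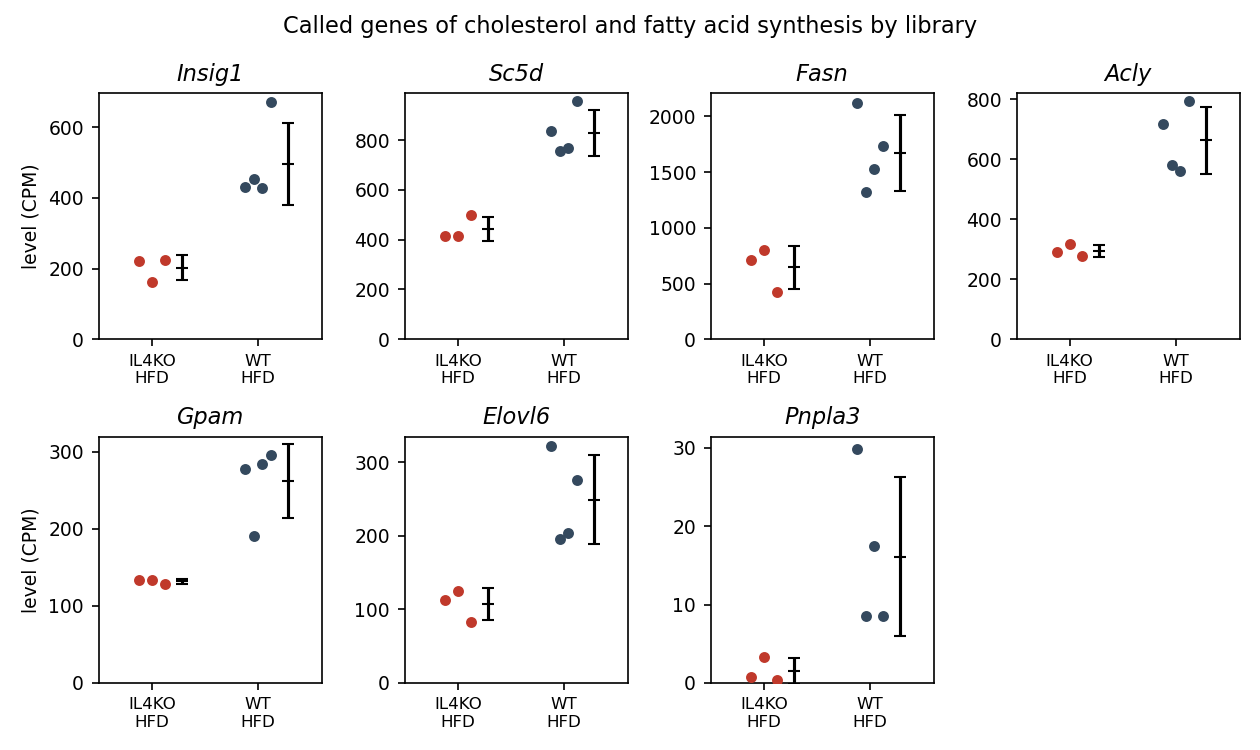
CPM of 7 called genes of cholesterol and fatty acid synthesis in each library, IL4KO_HFD at the left and WT_HFD at the right of each panel, with mean and SD beside the points and each axis starting at 0. In no panel does a knockout library reach the lowest wild-type library, and for Acly the highest knockout value is 317 CPM and the lowest wild-type value 560 CPM.

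On chow, 6 of the cholesterol genes were lower and 0 higher in IL4KO_chow, with a median of -0.50, whereas among lipogenesis genes 0 were lower and 2 higher, Srebf1 and Pklr, with a median of 0.03, against 9.61% of tested genes called on chow (5.93% higher and 3.68% lower). Insig1 fell on chow by 0.85 (FDR 0.0104) and Sc5d by 0.65 (FDR 0.00121). Acly averaged 583 ± 131 CPM in IL4KO_chow and 610 ± 139 CPM in WT_chow (SD, n = 4 each), with FDR 0.857 by edgeR, and Fasn had a log2 fold change of -0.18 (FDR 0.699). Srebf1 averaged 338 ± 80 CPM in IL4KO_chow and 197 ± 35.0 CPM in WT_chow (SD, n = 4 each), a rise of 0.78 (FDR 0.0399). The test of the difference between diets was passed by Gpam alone among these genes, at -1.29 (SE 0.212, FDR 0.0147), and FDR was 0.107 for both Acly and Srebf1 and 0.227 for Fasn. Leaving out IL4KO_HFD replicate 1, 2 or 3 ended that call for Gpam (FDR 0.0565, 0.0517 and 0.0772), as did leaving out WT_chow replicate 4 (FDR 0.051).

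Of 25 genes of lipid droplets and PPARG targets, 2 were higher and 1 lower (12%, against 3.02% overall). Pnpla2 and Lipe, the lipases for the first and the following step of triglyceride breakdown, were higher by 0.56 (FDR 0.0162) and 0.61 (FDR 0.0109). Pnpla2 was at 173, 175 and 141 CPM in IL4KO_HFD and 110, 115, 121 and 97.0 CPM in WT_HFD, and Lipe at 25.8, 22.9 and 35.1 CPM in IL4KO_HFD and 17.5, 18.9, 18.1 and 18.4 CPM in WT_HFD. Neither gene overlapped between groups, and they held in 5 and 6 of the 7 fits. Vldlr, the VLDL receptor, was at 7.77, 16.7 and 3.51 CPM in IL4KO_HFD and 36.7, 31.8, 35.2 and 31.8 CPM in WT_HFD, and fell by 1.84 (FDR 0.0223), in 5 of the 7 fits. Vldlr (-3.17, FDR 0.000297) and Lipe (0.84, FDR 0.000153) were also called on chow, whereas Pnpla2 was not (0.30, FDR 0.117). Fatty acid oxidation and PPARA targets had 0 of 34 called and a median of 0.10, and lipoprotein genes 0 of 20 with a median of 0.02.

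Of 24 bile acid genes, 2 were called (8.33%, against 3.02% overall). Abcc2, a canalicular exporter, was higher by 0.54 (FDR 0.0305, 2 of the 7 fits) and Nr0b2, the bile acid induced repressor SHP, lower by 0.97 (FDR 0.0382, 3 of the 7 fits). Both were also called on chow in the same direction, Abcc2 at 1.05 (FDR 1.35e-05) and Nr0b2 at -1.59 (FDR 0.000191). Of 25 genes of gluconeogenesis and insulin signalling, 3 were called (12%). Irs1 was higher and Trib1 (-0.68) and Ppp1r3g (-1.85) were lower, with Trib1 holding in 3 and Ppp1r3g in 2 of the 7 fits. Ppp1r3g was also called on chow (-2.09, FDR 0.00982), whereas Trib1 was not (-0.02, FDR 0.96). Trib1 encodes a pseudokinase that lowers hepatic lipogenesis in mice, and Ppp1r3g a subunit that brings a phosphatase to glycogen. Of 23 clock genes, Clock itself was called, higher by 0.45 (FDR 0.0162), a share of 4.35% that is close to the 3.02% overall. No source used here gives the hour of collection.

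The changes with the smallest FDR were in genes outside these pathways, and they were shared with the chow libraries. Ctse, which encodes the endosomal protease cathepsin E, was at 1.37, 1.23 and 0.405 CPM in IL4KO_HFD and 295, 187, 271 and 205 CPM in WT_HFD. It was almost absent from the 3 knockout livers, with a log2 fold change of -7.85 (SE 0.551, FDR 4.46e-08). Cyp2c39, a cytochrome P450 gene, was at 4.23, 5.25 and 2.56 CPM in IL4KO_HFD and 504, 320, 504 and 275 CPM in WT_HFD, a log2 fold change of -6.62 (FDR 2.2e-08). Ren1, the renin gene, had 2 counts in all 3 IL4KO_HFD libraries together and 1263 in the 4 WT_HFD libraries. Its rate in IL4KO_HFD was 0.00342 of that in WT_HFD, with an exact 95% interval of 0.000414 to 0.0124 that covers counting error only. Tmem181b-ps had 0 counts in IL4KO_HFD and 115 in WT_HFD, and was at least 17.7-fold lower with a floor of 3 counts over the group in place of 0. Its neighbour Dynlt1b, a dynein light chain gene, was lower by 3.45. Both belong to families of near-identical copies, as do Cyp2c39 and Cyp2a22, so the copy their reads came from is uncertain.

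The remaining lower genes of large size included Cyp2a22 (-5.12, FDR 0.000151), Cyp26a1 (-2.80, FDR 0.00113), Kcne3 (-2.66, FDR 0.000757) and Gpm6a (-1.99, FDR 0.000891). Cyp26a1, the enzyme that clears retinoic acid, was at 3.09, 2.79 and 1.08 CPM in IL4KO_HFD and 9.11, 16.6, 23.7 and 17.6 CPM in WT_HFD. All 4 held in all 7 fits. Pira2, an immunoglobulin-like receptor gene of myeloid cells, was lower by 2.69 (FDR 0.0341), but held in only 1 of the 7 fits.

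Among the higher genes Cyp17a1, a steroid hydroxylase that is higher in female than in male mouse liver, was at 103, 95 and 34.5 CPM in IL4KO_HFD and 5.15, 2.62, 1.99 and 2.34 CPM in WT_HFD. It was higher by 4.65 (SE 0.460, FDR 8.69e-06), with replicate 3 the lowest of the knockout livers. Of 14 tested female-biased liver genes, Cyp17a1 alone was called (7.14%, against 3.02% of all tested genes). The median of that list was -0.76, and 12 of the 14 had a negative log2 fold change. Insc, an adaptor for spindle orientation, was at 8.69, 7.26 and 11.3 CPM in IL4KO_HFD and 0.487, 0.616, 0.701 and 0.872 CPM in WT_HFD, higher by 3.72 (FDR 1.23e-09). Pop4, a subunit of ribonuclease P, was at 16.3, 14.8 and 15.5 CPM in IL4KO_HFD and 3.82, 5.16, 5.49 and 4.20 CPM in WT_HFD, higher by 1.75 (FDR 6.23e-09). These groups did not overlap. Xaf1, an interferon-inducible proapoptotic gene, was at 14.1, 22.7 and 12.7 CPM in IL4KO_HFD and 4.45, 5.31, 6.42 and 4.63 CPM in WT_HFD, higher by 1.68 (FDR 6.33e-05).

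Also higher were Plcd3, a phospholipase C gene (3.19), Cdh4, a cadherin gene (2.17), Camk2b, a calcium-dependent kinase gene (1.99), and Col13a1, a transmembrane collagen gene (1.76), at FDR of 0.000622 to 0.00358 and in all 7 fits. Cd207, the lectin gene langerin, was at 2.06, 9.28 and 2.43 CPM in IL4KO_HFD and 1.25, 0.385, 1.52 and 0.164 CPM in WT_HFD. It was called (2.61, FDR 0.0368) in 4 of the 7 fits and lost that call without IL4KO_HFD replicate 2 (FDR 0.227). A gene outside the naming rule, Gm4788, had the smallest FDR of all and was singled out after its values were seen. It was at 225, 164 and 294 CPM in IL4KO_HFD and 2.57, 1.15, 2.10 and 2.18 CPM in WT_HFD, a log2 fold change of 6.81 (SE 0.220, FDR 2.62e-15). Cfhr2, a complement factor H-related gene nearby, was at 577, 437 and 679 CPM in IL4KO_HFD and 180, 231, 220 and 226 CPM in WT_HFD, higher by 1.40 (FDR 5.04e-08).

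In the chow libraries, which share no animal with the high-fat libraries, 348 of the 389 genes had the same sign (89.5%), as did 62.4% of all tested genes. Of the 389, 183 were also called on chow, all with the same sign, 118 higher and 65 lower. These are 47.0% of the genes called on the high-fat diet and 14.8% of the 1239 called on chow, where 9.61% of tested genes were called. Ctse had a log2 fold change of -7.89 on chow, Cyp2c39 of -6.65, Ren1 of -8.93, Gm4788 of 7.14, Insc of 3.51 and Cyp17a1 of 3.11. All 6 were called on both diets. Of the named genes with large changes, Col13a1 (0.52), Cd207 (0.72) and Pnpla3 (-1.34) were not called on chow.

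**Figure D3:**
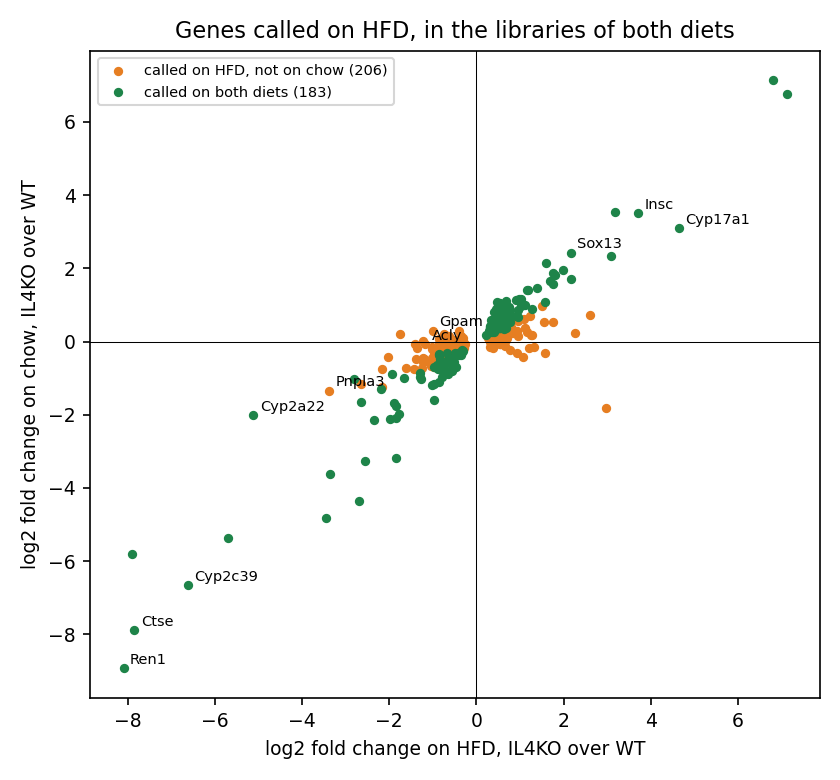
Log2 fold change of IL4KO over WT on the high-fat diet (horizontal) and on chow (vertical) for the 389 genes called on the high-fat diet. The 183 genes called on both diets lie along a rising line, while Gpam, Acly and other genes among the 206 not called on chow lie near 0 on the vertical axis.

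The test of whether the genotype difference itself differed between the diets called 6 genes, 0.0465% of those tested, with 1379 at an unadjusted p below 0.05. Abtb2 averaged 9.59 ± 2.95 CPM in IL4KO_HFD (SD, n = 3) and 7.77 ± 2.04 CPM in WT_HFD (SD, n = 4). On chow it averaged 9.12 ± 1.84 CPM in IL4KO_chow and 23.5 ± 2.32 CPM in WT_chow (SD, n = 4 each), and the log2 difference between diets was 1.63 (FDR 0.026). Plekhg5, a guanine nucleotide exchange factor gene, had log2 fold changes of 0.32 on the high-fat diet and 1.56 on chow, a difference of -1.24 (FDR 0.00634). Pitpnm2, a phosphatidylinositol transfer protein gene, and Sh3bp5 had differences of -0.71 (FDR 0.0304) and -0.51 (FDR 0.0147). Of the 6, Gpam alone was also called in the high-fat comparison. Leaving out 1 library gave 3 to 8 calls, and Abtb2, Gpam, Pitpnm2 and Sh3bp5 each lost theirs without at least 1 library, whereas Plekhg5 kept its call in each of these fits.

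Called genes were uneven along the chromosomes. Chromosome 19 held 35 called of 484 tested genes (7.23%) and chromosome 1 held 37 of 751 (4.93%), while chromosome X held 1 of 385 (0.26%). In a scan of 220 bins of 10 Mb with at least 20 tested genes, added after the data were seen, 3 bins had more than 4 times the background share of 3.02%. They were 50 to 60 Mb on chromosome 19 (6 of 33, 18.2%), 130 to 140 Mb on chromosome 1 (13 of 82, 15.9%) and 40 to 50 Mb on chromosome 19 (15 of 100, 15.0%), and 62 bins held 0 called genes. Gpam of the lipogenesis list lies in the bin at 50 to 60 Mb on chromosome 19, and Abcc2 in that at 40 to 50 Mb. Those 3 bins held 27 of the 183 genes called on both diets, and 215 of the 12850 tested genes with a position. They were picked by their calls on the high-fat diet, which favours genes called on both diets.

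The bin on chromosome 1, on mm10, holds Ctse (131638314-131675507), Pm20d1, Pik3c2b, Golt1a, Ren1, Etnk2, Sox13, Ppfia4, Tmem9, Ddx59, Nr5a2, Gm4788 and Cfhr2. Of these 13 genes, 9 were higher and 4 lower, and 11 were called on both diets. Sox13, a transcription factor gene, was at 7.09, 9.72 and 10.5 CPM in IL4KO_HFD and 2.02, 2.31, 1.75 and 1.91 CPM in WT_HFD. Pm20d1, which makes and breaks N-acyl amino acids, was at 156, 110 and 159 CPM in IL4KO_HFD and 240, 259, 281 and 248 CPM in WT_HFD. Both differed without overlap (2.17, FDR 1.29e-06, and -0.86, FDR 2.43e-05). Ppfia4 had 31 counts in IL4KO_HFD and 0 in WT_HFD, at least 22.3-fold higher against a floor of 3 counts over the group. Il10, which was not the targeted gene in these mice, lies in the same bin at 131019845 to 131024970, with 0, 0 and 0 counts in IL4KO_HFD and 0, 4, 1 and 1 counts in WT_HFD.

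Between 40 and 50 Mb on chromosome 19, Cyp17a1, As3mt, Sfxn2 and Nt5c2 lie close together near 46 Mb. As3mt, an arsenic methyltransferase gene, was at 71.7, 66.6 and 62.5 CPM in IL4KO_HFD and 21.1, 23.4, 15.3 and 18.9 CPM in WT_HFD (1.76, SE 0.121, FDR 2.75e-09). Sfxn2, a mitochondrial carrier gene, was at 67.9, 46.6 and 71.1 CPM in IL4KO_HFD and 17.1, 18.1, 20.8 and 15.5 CPM in WT_HFD (1.80, SE 0.128, FDR 4.72e-09). Both were separated widely and had like values on chow (1.87 and 1.82). Nt5c2, a nucleotidase gene, was lower by 0.60 (FDR 0.00228). The count in this bin ran from 8 (without IL4KO_HFD replicate 1 or WT_HFD replicate 4) to 19 (without IL4KO_HFD replicate 2), with 9 without WT_HFD replicate 2. It was 25 by DESeq2. Whether DNA of another strain lies in these intervals was not tested.

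**Figure D4:**
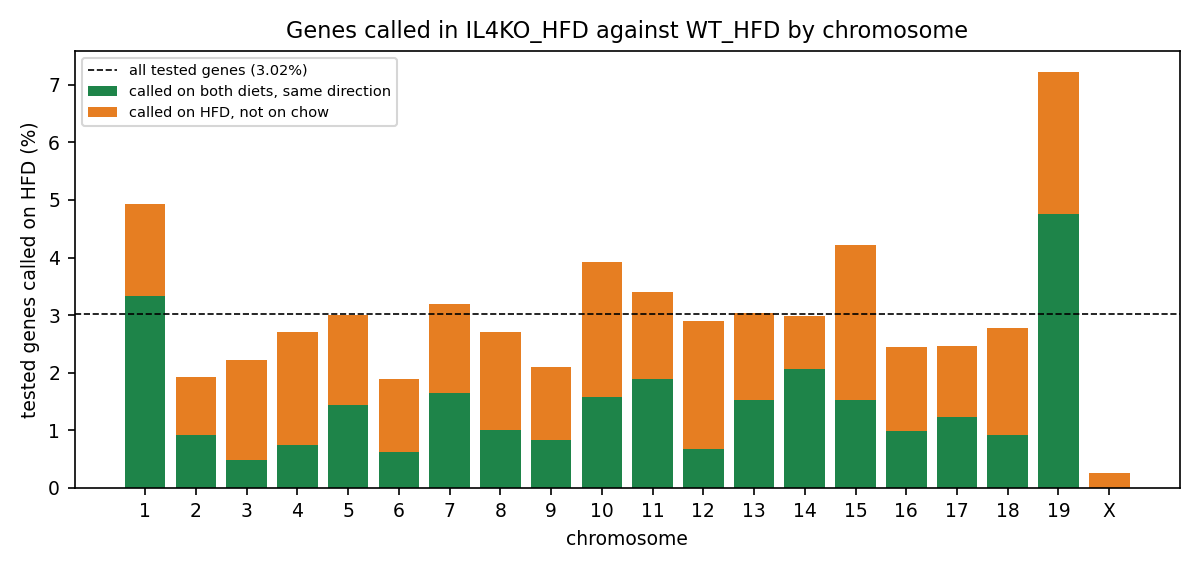
Share of tested genes on each chromosome that was called in IL4KO_HFD against WT_HFD, split into genes called on both diets in the same direction and genes called on the high-fat diet alone, with the share over all tested genes (3.02%) as a dashed line. Chromosomes 19 (7.23%) and 1 (4.93%) have the highest bars.

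Around Il4 itself, at chr11:53612460-53618665 on mm10, the 100 tested genes on each side were taken, which span 30976707 to 62553213. Of these 200 genes, 10 were called (5.0%), 6 higher and 4 lower, against 3.02% of all tested genes. With 50 genes on each side 6 were called (6.0%), and with 200 on each side 14 (3.5%). With 1 library left out, the count of 10 became 5 without IL4KO_HFD replicate 1, WT_HFD replicate 2 or WT_HFD replicate 3. It became 3 without WT_HFD replicate 4 and 12 without IL4KO_HFD replicate 2. Calls over all tested genes, 389 in the full fit, moved the same way, to 185, 227, 294, 186 and 631 in that order. Timd2, a receptor gene of the TIM family, was at 119, 91.2 and 122 CPM in IL4KO_HFD and 72.4, 76.2, 79.3 and 73.9 CPM in WT_HFD, higher by 0.55 (FDR 0.000493). Anxa6, an annexin gene, was at 104, 108 and 83.5 CPM in IL4KO_HFD and 150, 148, 157 and 135 CPM in WT_HFD, and fell by 0.58 (FDR 0.000221). Ulk2, an autophagy kinase gene, was at 51.3, 49.6 and 53.7 CPM in IL4KO_HFD and 75.3, 81.7, 77.4 and 76.5 CPM in WT_HFD (FDR 0.000229). These 3 genes held in all 7 fits and were called on chow in the same direction, at 0.67, -0.60 and -0.56. The other called genes of this span, such as Adra1b (-0.33), Cnot6 (-0.27), Jade2 (0.59) and Zfp672 (0.53), held in 1 to 5 of the 7 fits. Rad50, which lies beyond Il13 from Il4, had a log2 fold change of 0.03 (FDR 0.965) on the high-fat diet and was called on chow, at 0.48 (FDR 0.0379).

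Genes of drug and xenobiotic metabolism gave 2 higher and 5 lower of 47 tested (14.9%, against 3.02% overall), with a median of -0.13. The higher ones were Cyp2c37 and Cyp2c50, neighbours of Cyp2c39 on chromosome 19. Cyp2c50 was at 534, 160 and 657 CPM in IL4KO_HFD and 95.3, 214, 129 and 162 CPM in WT_HFD, so that replicate 2 lay within the wild-type range. Besides Cyp2c39 and Cyp2a22, Cyp1a2 (-1.0, FDR 0.0248), Ugt2b35 (-0.78, FDR 0.00703) and Ahr (-0.84, FDR 0.0246) were lower. Ahr encodes the receptor that induces Cyp1a2. Ahr was at 57.8, 49.7 and 49.5 CPM in IL4KO_HFD and 81.0, 97.5, 88.8 and 107 CPM in WT_HFD, and Cyp1a2 at 157, 76.6 and 150 CPM in IL4KO_HFD and 181, 240, 265 and 336 CPM in WT_HFD. Neither overlapped between groups, and they held in 2 and 5 of the 7 fits. The number lower on this list was 3 without IL4KO_HFD replicate 2 or WT_HFD replicate 4.

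Of 47 gene lists with tested members, 28 had 0 called members. Among them were extracellular matrix and stellate cell activation (0 of 47, median 0.02), oxidative phosphorylation (0 of 46, median 0.00), acute phase proteins (0 of 36, median 0.18), inflammatory cytokines and chemokines (0 of 22, median -0.06), Kupffer cell markers (0 of 18, median -0.08) and cell cycle genes (0 of 27, median -0.07). Medians were larger in size for some other lists with 0 called. They included neutrophil markers (0 of 16, median -1.02), T and NK cell markers (0 of 15, median -0.78) and markers of macrophages derived from monocytes or laden with lipid (0 of 23, median 0.40). Type I interferon genes gave Xaf1 higher and Oasl1 lower of 34 (5.88%, against 3.02% overall), with a median of -0.28. Of 39 interferon gamma and antigen presentation genes, H2-Q6 alone was called, 2.56% of them (2.98, FDR 0.0469), with 0.457, 3.91 and 4.59 CPM in IL4KO_HFD and 0.0695, 1, 0 and 0.327 CPM in WT_HFD. The list as a whole went the other way, with a median of -0.18 and a negative log2 fold change for 33 of the 39. H2-Q6 has near-identical copies and held in 2 of the 7 fits.

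Within IL4KO_HFD the livers differed from each other in programmes that did not separate the genotypes. The mean level of 25 male-biased liver genes, in log2 CPM relative to the mean of the 7 libraries, was 0.19, -1.71 and 1.77 in IL4KO_HFD replicates 1, 2 and 3 and -1.09, 0.88, -0.67 and 0.62 in WT_HFD replicates 1 to 4. Matrix genes were at -0.21, 0.81 and -0.91 in IL4KO_HFD and -0.19 to 0.39 in WT_HFD, and markers of macrophages derived from monocytes or laden with lipid at -0.53, 1.37 and -1.0 in IL4KO_HFD and -0.20 to 0.37 in WT_HFD. Replicates 2 and 3 lay at opposite ends, outside the wild-type range for male-biased, matrix and macrophage genes. Col3a1, a fibrillar collagen gene, was at 63.9, 205 and 23.7 CPM in IL4KO_HFD and 129, 65.9, 96.7 and 90.0 CPM in WT_HFD. Gpnmb, a marker of lipid-associated macrophages, was at 1.14, 17.9 and 0.270 CPM in IL4KO_HFD and 1.95, 0.539, 1.87 and 1.09 CPM in WT_HFD. In bulk tissue, more cells of a type and more RNA per cell cannot be told apart.

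The lipogenesis list kept the groups apart in every library, at -0.37, -0.20 and -0.55 in IL4KO_HFD and 0.41, 0.11, 0.27 and 0.33 in WT_HFD. The cholesterol list did not, at -0.22, -0.74 and 0.07 in IL4KO_HFD and 0.13, 0.33, -0.07 and 0.52 in WT_HFD, where replicate 2 was the lowest knockout library. Summed markers of other cell types, given with their range in each group, were 649 to 1020 CPM in IL4KO_HFD and 812 to 918 CPM in WT_HFD for Kupffer cells, and 3.10 to 9.39 CPM in IL4KO_HFD and 8.61 to 10.3 CPM in WT_HFD for T and NK cells. The part of these markers in the called genes was not tested. Adipose tissue was not detectable by its defining marker Adipoq, at 0 CPM in all 3 IL4KO_HFD libraries and 0 to 0.077 CPM in WT_HFD. Immediate early genes had a median of -0.87 with 0 of 23 called and 10 at an unadjusted p below 0.05. Their mean level was -0.23, -0.03 and -1.10 in IL4KO_HFD and -0.11, 0.40, -0.16 and 1.22 in WT_HFD. WT_HFD replicate 4 was the highest, with Atf3 at 89.8 CPM against 4.91 to 7.31 CPM in the other wild-type libraries.

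**Figure D5:**
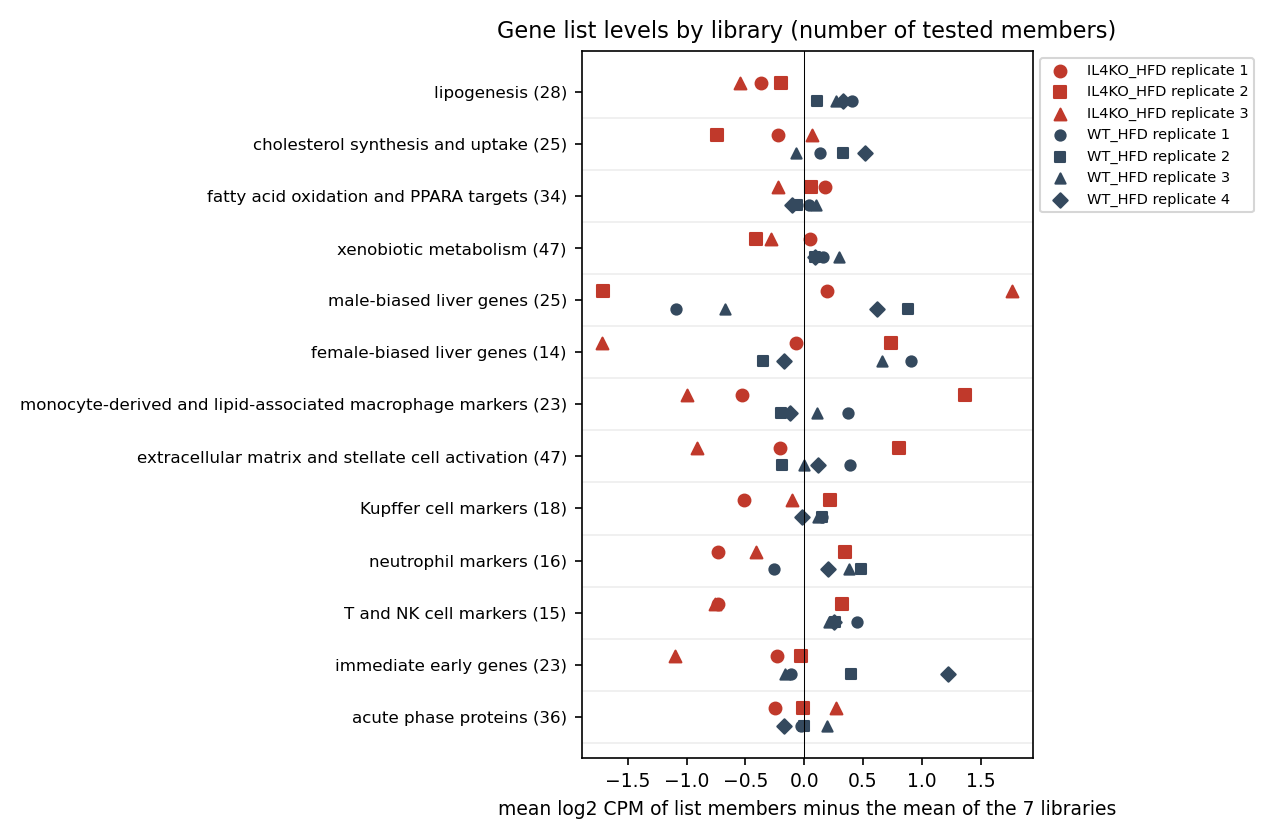
Mean log2 CPM of the tested members of 13 gene lists in each library, relative to the mean of the 7 libraries, with IL4KO_HFD above WT_HFD in each row and 1 symbol per replicate. Knockout symbols lie below all wild-type symbols for lipogenesis (-0.20 and 0.11 at the nearest) and, by a small gap, for xenobiotic metabolism (0.05 and 0.09), while male-biased, macrophage and matrix genes spread within IL4KO_HFD from replicate 2 to replicate 3.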

How the data were processed

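Messenger RNA of each liver was sequenced from stranded libraries, per the labels. The submitters' processing notes name bcl2fastq 2.16, TopHat2 2.0.8, Partek and the mm10 build, while no source used here gives the annotation, counting or strand settings. For 24440 gene symbols the authors deposited estimated counts, 90.6% to 95.9% of them whole in a library, and log2 expression values for 14078 genes, which served as an alternative. Reads of genes that overlap on opposite strands, or of near-identical copies, can be miscounted.

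Estimated counts were rounded and analysed with edgeR 4.0.16 in R 4.3.3. Its filter by group left 12891 genes. One robust quasi-likelihood fit on trimmed-mean (TMM) scaling held the 6 group means of all 23 libraries (17 residual degrees of freedom, biological coefficient of variation 0.156), tests were two-sided, and p-values were adjusted over all tested genes. The SE is the absolute log2 fold change over the square root of F. Library totals of 7.11 to 30.2 M counts set the precision, and intervals cover counting error only. Replicates are separate mice, numbered in accession order.

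The 48 gene lists (1169 of 1173 entries found) are described by counts and medians. The comparison, lists and rules were chosen with earlier results of these data known. Named genes were the IL-4 list and the 12 largest changes in each direction (called, no overlap of CPM, the higher group averaging 2 CPM or more). Others were up to 12 by FDR among genes called in all leave-one-out fits, called list members and genes that differed between diets. Called genes among the 100 tested on each side of Il4 were also named. Positions came from the RefSeq annotation of GRCm38 (mm10) for 24312 symbols. The fit was checked on simulated data with planted changes. Alternatives were other scalings, filters, DESeq2 1.42.0, limma 3.58.1 (voom and log2 values), thinned counts, the compared groups alone and each library left out. A few genes counted in the totals are not reported here by name.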

Additional observations from a re-analysis of the deposited data

Results flagged for a closer look

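Genes whose genotype difference itself differed between the diets, by the test of that difference, included Plekhg5 (-1.24 on the log2 scale), Sh3bp5 (-0.51), Gpam (-1.29), Abtb2 (1.63) and Pitpnm2 (-0.71). Each value is the log2 fold change of IL4KO over WT on the high-fat diet minus that on chow.

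Single libraries stood apart from the other 3 of WT_HFD by Dixon's test in 8 of 115 gene and list values tested, where chance gives about 1 in 20. Gpam was low in replicate 2, at 191 CPM. Insig1 was high in replicate 4, at 670 CPM, and Abcc2 was high in replicate 3, at 294 CPM. Among list levels, p53 targets (0.53) and heat shock genes (0.17) were high in replicate 4, NRF2 targets were low in replicate 2 (-0.22), and pericentral hepatocyte genes were low in replicate 1 (-0.24). IL4KO_HFD, with 3 libraries, was not tested in this way.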

How the results depend on the processing

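The number of called genes in IL4KO_HFD against WT_HFD, 389, became 95 when the compared groups were fitted alone, and ran from 185 to 631 with 1 library left out. With the other scalings, filters and tools it stayed within 1.5 times, for example 519 by DESeq2, 279 by limma-voom and 288 after thinning to the smallest library. On chow, 1239 ran from 828 to 1139 with 1 library left out. The 6 genes that differed between diets became 68 by DESeq2, 21 with the groups alone and 11 with the deposited log2 values, and 3 to 8 with 1 library left out. The 183 genes called on both diets became 61 with the groups alone, and 99 to 246 with 1 library left out, and the 89.5% of the same sign ran from 87.8% to 93.5%. The 10 called genes near Il4 became 5 with the groups alone, 5 by limma-voom, 6 after thinning and 6 with 50 genes on each side, and 3 to 12 with 1 library left out. The cause was not tested.

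For the 70 named genes, 0 results reversed, 1115 alternative values kept direction and call, 220 lost the call and 3 gained it. Ren1, at 0 or 1 counts in the knockout libraries, lost its call by limma-voom (FDR 0.428). No paired analysis was possible because the labels give no replicate numbers that groups share. Depth, at 7.79 to 8.94 M counts in IL4KO_HFD, limits statements on Il4, Il10 and other genes of few counts.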

Other observations

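The libraries labelled dKO, from mice lacking IL-10 as well as IL-4, showed some of the same large differences and lacked others. These values were not tested here. Cyp2c39 averaged 4.02 ± 1.36 CPM in IL4KO_HFD (SD, n = 3) and 2.22 ± 1.68 CPM in dKO_HFD (SD, n = 4), against 401 ± 120 CPM in WT_HFD (SD, n = 4). Gm4788 averaged 228 ± 65.0 CPM in IL4KO_HFD and 286 ± 15.4 CPM in dKO_HFD, against 2 ± 0.602 CPM in WT_HFD. As3mt and Sfxn2 were also near their IL4KO_HFD means in dKO_HFD, at 64.1 ± 10.8 and 66.0 ± 7.69 CPM.

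Ren1, in contrast, averaged 0.0831 ± 0.0727 CPM in IL4KO_HFD and 25.6 ± 19.1 CPM in dKO_HFD, against 24.6 ± 7.84 CPM in WT_HFD. Ctse averaged 1 ± 0.522 CPM in IL4KO_HFD and 94.0 ± 49.5 CPM in dKO_HFD, against 239 ± 51.5 CPM in WT_HFD. Both genes lie between 131 and 134 Mb on chromosome 1, as does Il10. Other genes of that stretch were nearer to IL4KO_HFD, such as Sox13, at 9.11 ± 1.80 CPM in IL4KO_HFD and 6.89 ± 1.76 CPM in dKO_HFD, against 2 ± 0.235 CPM in WT_HFD, and Golt1a, at 13.6 ± 0.739 CPM in IL4KO_HFD and 10.8 ± 1.58 CPM in dKO_HFD, against 6.98 ± 0.346 CPM in WT_HFD. Of the 13 called genes between 130 and 140 Mb, 8 had a dKO_HFD mean nearer to that of IL4KO_HFD and 5 nearer to that of WT_HFD. Xaf1 averaged 16.5 ± 5.42 CPM in IL4KO_HFD and 3.50 ± 1.03 CPM in dKO_HFD, against 5.21 ± 0.894 CPM in WT_HFD. Of the 10 called genes near Il4, 8 had a dKO_HFD mean nearer to IL4KO_HFD and 2 nearer to WT_HFD. The same count over all 389 called genes was not made, so these counts do not set either interval apart from other called genes. Anxa6, one of the 8, averaged 98.4 ± 13 CPM in IL4KO_HFD and 115 ± 4.03 CPM in dKO_HFD, against 147 ± 9.36 CPM in WT_HFD. The 2 exceptions were Ulk2, at 51.6 ± 2.05 CPM in IL4KO_HFD and 86.9 ± 8.64 CPM in dKO_HFD, against 77.7 ± 2.78 CPM in WT_HFD, and Timd2, at 111 ± 16.9 CPM in IL4KO_HFD and 68.2 ± 4.62 CPM in dKO_HFD, against 75.5 ± 3.00 CPM in WT_HFD.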
